A study of Mus musculus with 24 samples.

Results

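The net change of RNA between the unfertilized egg and the late 2-cell embryo was read from 6 of the 24 libraries of the series: the 3 input libraries of late 2-cell (L2C) embryos against the 3 input libraries of oocytes in metaphase of the second meiotic division (MII). An input is the part of the RNA that was not passed over the m6A antibody and so serves as the RNA-seq of its stage. MII oocytes came from superovulated B6D2F1 females of 8 weeks, 14 to 16 h after human chorionic gonadotropin (hCG), with the cumulus cells taken off by hyaluronidase. For L2C embryos, zygotes were taken 14 to 16 h after hCG from females of the same cross mated with B6D2F1 males. They were grown in culture and collected as L2C embryos 48 to 50 h after hCG. The 3 inputs of late 1-cell (L1C) embryos, collected at 27 to 29 h, were used to divide the span into a first step (MII to L1C) and a second step (L1C to L2C). A further group, 3 control libraries from L2C embryos given Cas13d mRNA by injection and nothing else, was used only for reads on exons. The 3 input groups are wild type and untreated apart from hormone priming, and the number of cells and of females behind a library is not given in the sources used here. P values therefore measure the spread between libraries, which may be technical.

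A full-grown oocyte stops transcribing its genome and carries stored mRNAs, which drive completion of meiosis, fertilization and the first cleavage. After fertilization these maternal mRNAs are deadenylated and degraded, first by enzymes the oocyte made and then by factors of the embryo. In the mouse a minor wave of transcription begins in the 1-cell embryo and the major wave of zygotic genome activation (ZGA) follows in the 2-cell embryo, so the L2C transcriptome is a mixture of surviving maternal and newly made zygotic RNA.

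The inputs held 18557483 to 24308395 estimated counts at MII and 19962783 to 38195381 at L2C. Values are given as CPM, counts per 1000000 of the library scaled by TMM, a relative scale: a fall in RNA per embryo that all genes share does not appear in it, and a loss of 1 mRNA cannot be told apart from dilution by others. Counts cover the whole span of a gene, introns included, so genes with overlapping spans or near-identical copies can share reads. Across tested genes, log2 CPM correlated at 0.983 to 0.986 among the MII libraries and 0.981 to 0.988 among the L2C libraries, against 0.576 to 0.581 between the stages. Of the 10 oocyte markers, all were lower at L2C, with a sum of 22520 to 24010 CPM at MII and 1143 to 1198 CPM at L2C, and of 26 genes of the 2-cell stage 24 were higher. Reads on the mitochondrial genome made up 0.0839% to 0.116% of MII libraries and 0.378% to 0.696% of L2C libraries.

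Most of the transcriptome differed between the ends of the span. Of 15279 tested mRNAs (protein-coding genes), 7149 were higher at L2C (46.8%) and 5851 lower (38.3%) at an adjusted p under 0.05 by the quasi-likelihood test of edgeR with Benjamini-Hochberg adjustment. In either direction 85.1% were called, and the CPM of the 3 libraries of each stage did not overlap for 87.3%. A change of more than 2-fold was found for 6295 of the higher and 4679 of the lower mRNAs. The median log2 change of all tested mRNAs was 0.29. With so large a share called, a call by itself says little of a gene, and the classes below rest on the size of the change.

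mRNAs were called cleared where they were lower with a log2 change below -2, that is to less than 1 part in 4 of the MII level. There were 2610 of these (17.1%). Newly present mRNAs held at most 3 counts in each MII input, at least 1 CPM in each L2C input and were called higher. They numbered 876 (5.73%). Retained mRNAs had a 95% interval of the log2 change inside -1 to 1 and a mean of at least 10 counts, and 2182 passed (14.3%), of which 832 were also called higher or lower within that bound. A further 929 mRNAs were neither called nor bounded, so their net change was not resolved by 3 libraries a stage.

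The classes held very unequal parts of the libraries. They were set from the counts of these same libraries, so the direction of their shares from MII to L2C follows from the rules. Only the size of the shares is described. Cleared mRNAs took up 45.7% to 46.0% of the MII libraries, 29.6% to 30.9% of the L1C libraries and 5.68% to 5.79% of the L2C libraries. Retained mRNAs held 14.2% at MII, 13.2% at L1C and 15.3% at L2C (means, n = 3). Newly present mRNAs went from a mean of 0.00226% (MII) through 0.0678% (L1C) to 1.41% (L2C). The largest part of the L2C library lay in the higher mRNAs that were neither newly present nor retained, which went from 7.96% at MII to 49.1% at L2C. Genes other than mRNAs made up 6.26%, 16.7% and 17.2% of the MII, L1C and L2C libraries, a gain made in the first step.

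**Figure D1:**
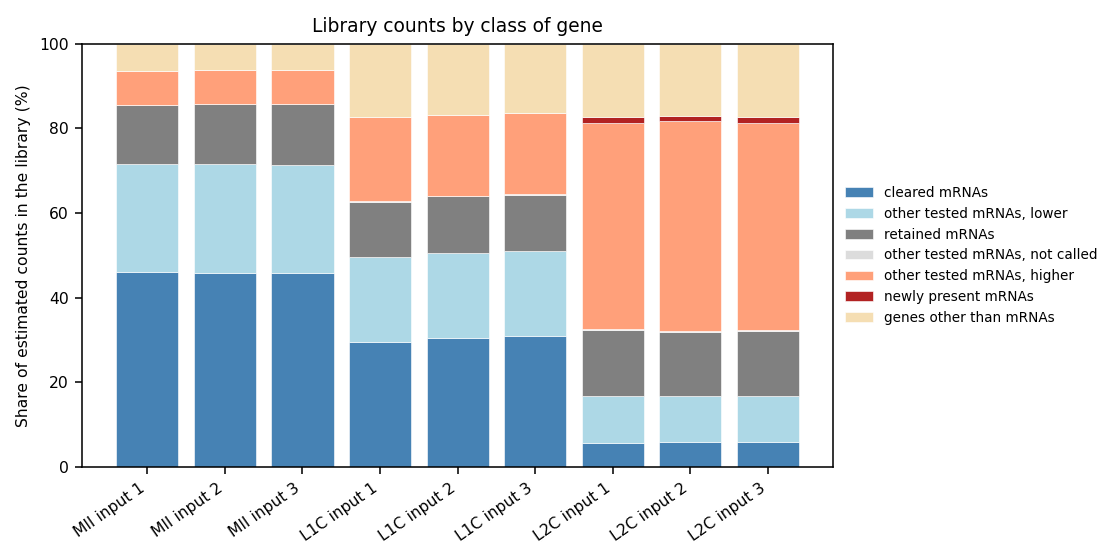
Share of the estimated counts (vertical axis, percent) in each of the 9 input libraries held by the classes of mRNA and by genes other than mRNAs, stacked to 100% with 1 bar per library. Cleared mRNAs fall from about 45.9% at MII to 5.74% at L2C, while newly present mRNAs reach 1.41% at L2C (means of 3). The classes were set from these same libraries.

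The most abundant cleared mRNAs include those of well-known egg proteins. Zbed3 (chromosome 13, 95323612 to 95337841, GRCm38), a member of the subcortical maternal complex, was the mRNA with most counts in each MII library, at 48487, 50425 and 48998 CPM. It stood at 22472, 28708 and 29733 CPM in L1C and 3482, 4261 and 4117 CPM in L2C embryos. Every L2C library lay below every L1C library and every L1C library below every MII library. The log2 change over the span was -3.64 (SE 0.14, edgeR, Benjamini-Hochberg adjusted p = 1.24e-11), most of it in the second step (-2.77, against -0.87 in the first).

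H1foo (chromosome 6, 115944938 to 115950236), the linker histone of the oocyte, went from 9750.2, 11453 and 11961 CPM at MII to 1129, 1826 and 1596 in L1C and 99.1, 101 and 101 in L2C embryos. Its log2 change of -6.79 (SE 0.20, edgeR adjusted p = 1.09e-12) was shared between both steps, and the 3 L2C libraries were nearly equal. Gdf9 (chromosome 11, 53431023 to 53437904), the growth factor by which the oocyte signals to its follicle cells, had 4855, 4148 and 3675 CPM at MII, 471, 492 and 616 in L1C and 74.4, 98.4 and 75.0 in L2C embryos. The first step accounted for -3.01 of its net log2 change of -5.68 (SE 0.19, edgeR adjusted p = 2.66e-12). E330021D16Rik (chromosome 6, 136400317 to 136415569) took the other course, with 4124, 4594 and 4841 CPM at MII, 3917, 4008 and 3668 in L1C and 165, 147 and 169.8 in L2C embryos. It kept most of its level through the 1-cell stage and lost it in the second step, for a net log2 change of -4.82.

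The remaining 4 of the 8 most abundant cleared mRNAs by the same rule were Slc45a3, a solute carrier (-4.36), D6Ertd527e (-4.69), Oas1d, an oligoadenylate synthetase family member of the oocyte (-4.56), and Bcl2l10, of the BCL2 family of cell death regulators (-4.30). In all 8 the MII and L2C libraries did not overlap, as for 87.3% of all tested mRNAs. The 8 were chosen for a large fall, so this adds nothing. At this depth 114 of the 2610 cleared mRNAs were at 3 counts or fewer in each L2C library. Of these 114, 34 (29.8%) had at least 1 CPM on exons in each of the control L2C libraries, against 72.6% of all tested mRNAs. Another 62 (54.4%) were at 3 counts or fewer in each, against 14.7%. A floor value on the span thus does not by itself show that the mRNA was gone. The 8 named here still had between 82.6 and 3953 CPM (means of 3) at L2C, and Zbed3 had 362, 379 and 418 exon CPM in the 3 control libraries of Cas13d-injected L2C embryos. The exon values of Zbed3 are far below its span values, a difference whose cause was not tested.

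**Figure D2:**
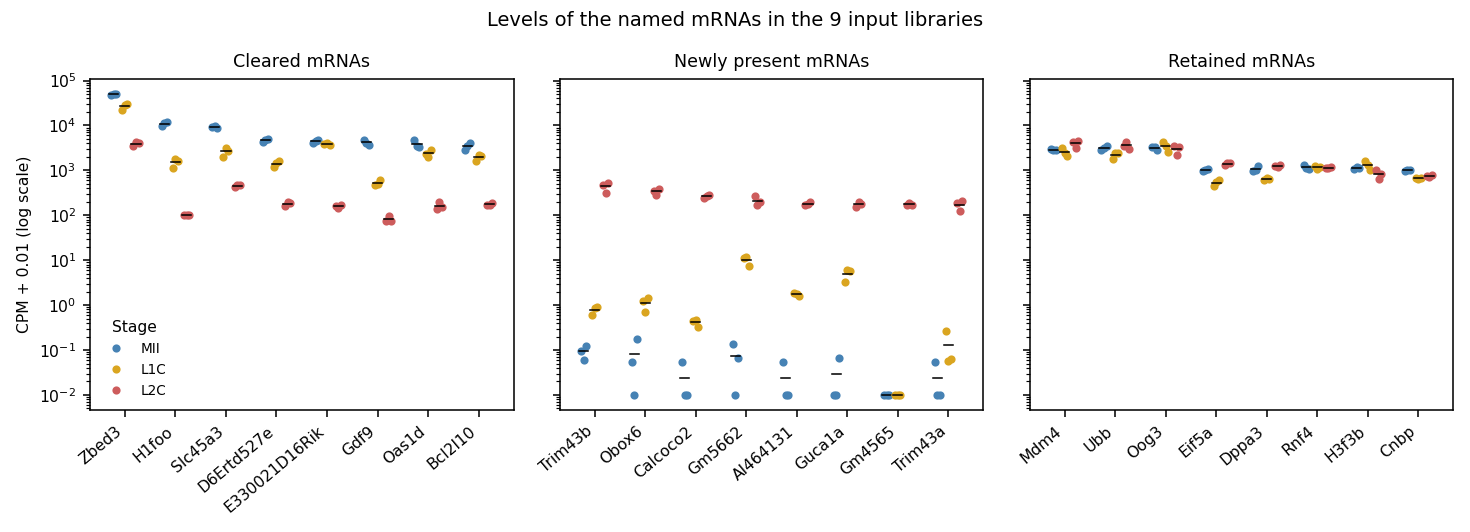
CPM plus 0.01 (vertical, log axis) of the 8 named cleared, 8 newly present and 8 retained mRNAs, with 1 point per input library coloured by stage and a line at the mean of 3. Zbed3 drops from a mean of 49303 to 3953 CPM, Trim43b climbs from 0.0829 to 439 CPM, and Rnf4 stays between 1096 and 1298 CPM at both ends.

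The newly present mRNAs had to differ between the stages, since the rule asks for counts at or near 0 at one end, so their number of calls adds nothing. Of the 876, 400 were listed at 0 in all 3 MII inputs. The ribosomal protein genes Rpl9, Rpl13 and Rpl24 and the initiation factor gene Eif3m, which every cell uses, were also listed at 0 there, so a 0 on the span does not show that the mRNA was missing from the egg. At L1C 206 were still at 3 counts or fewer in each library, and 72 already had at least 1 CPM in each. Most lay between these limits at L1C. The spans of 209 (23.9%) overlap that of another protein-coding gene, near the 24.0% of all tested mRNAs. Values identical to those of another gene were found for 15 (1.71%, against 0.209% of all tested mRNAs), so that their reads cannot be assigned to 1 copy.

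The newly present mRNAs with the highest level at L2C include known genes of the 2-cell stage. Trim43b (chromosome 9, 89084624 to 89092835), of the tripartite motif family, had 0.0861, 0.0499 and 0.113 CPM at MII, 0.592, 0.835 and 0.916 in L1C and 475, 316 and 526 in L2C embryos. This rested on 5 counts at MII against 41501 at L2C, a ratio at equal depth of 5616, with an exact 95% counting interval of 2406 to 17300. Obox6 (chromosome 7, 15833241 to 15839678), an oocyte-specific homeobox family gene, reached 344, 287 and 391 CPM at L2C from 4 counts in all MII libraries (ratio 5355, with an exact 95% counting interval of 2091 to 19650). Intervals of this kind cover counting error only. Calcoco2 (chromosome 11, 96099326 to 96111964), an autophagy receptor, reached 237, 274 and 281 CPM from 1 count.

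Guca1a (chromosome 17, 47394558 to 47400584), an activator of photoreceptor guanylate cyclase, had 3.34, 5.94 and 5.71 CPM at L1C and 150.0, 195 and 179.6 CPM at L2C, with 1 count at MII. It was therefore already present in every L1C library. Gm4565 (chromosome 7, 22582158 to 22588127) had 0 counts in all 6 MII and L1C libraries and 171, 184 and 167 CPM at L2C. Trim43a (186, 127 and 204 CPM), Gm5662 (276, 166 and 197 CPM) and AI464131 (167, 182 and 195 CPM) complete the 8, with 1, 4 and 1 counts over the MII libraries. In each of the 8 every L2C library was above every L1C library, and above every MII library by the rule of the class.

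Reads on exons were compared in the 3 control libraries of the knockdown experiment of the series, made from L2C embryos injected with Cas13d mRNA alone (8696476 to 14500548 counts). These are other embryos, so the numbers show only whether an mRNA can be seen on exons at this stage. At least 1 CPM on exons in each was found for 516 of the 876 newly present mRNAs (58.9%), 1919 of 2182 retained (88.0%), 1732 of 2610 cleared (66.4%) and 11096 of all 15279 (72.6%). Trim43b had 814, 811 and 689 exon CPM and Obox6 772, 767 and 752, whereas Guca1a had 3.45, 3.02 and 2.88 and Gm4565 0.896, 12.6 and 0.920. For the last 2, exon levels were far below those on the whole span. Of the newly present mRNAs 160 (18.3%) were at 3 counts or fewer on exons in each control library. The share was 18.2% for cleared and 14.7% for all tested mRNAs. The cause of the difference between span and exon values was not tested.

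To show what lies at the start of newly present and cleared genes, promoters from RefSeq (GRCm38.p6, 250 bases before to 50 after the start) were matched by symbol. They were found for 3 of the 8 newly present genes named above (Guca1a, Gm4565 and Trim43a) and 4 of the 8 cleared (Zbed3, Slc45a3, D6Ertd527e and E330021D16Rik). Capitals mark 4 motifs on either strand: the TATA box with the letters TATAAA, the box of general promoters read as CCAAT, the core TAATCC bound by some paired-like homeobox proteins, and the nuclear receptor half-site, AGGTCA. None of the motifs overlap within the promoters shown. The sequences run 5′ to 3′ on the strand of the gene, Guca1a at chr17:47400557-47400856 (minus strand), Gm4565 at chr7:22588078-22588377 (minus), Trim43a at chr9:88580641-88580940 (plus), Zbed3 at chr13:95323355-95323654 (plus) and Slc45a3 at chr1:131962665-131962964 (plus).
Guca1a: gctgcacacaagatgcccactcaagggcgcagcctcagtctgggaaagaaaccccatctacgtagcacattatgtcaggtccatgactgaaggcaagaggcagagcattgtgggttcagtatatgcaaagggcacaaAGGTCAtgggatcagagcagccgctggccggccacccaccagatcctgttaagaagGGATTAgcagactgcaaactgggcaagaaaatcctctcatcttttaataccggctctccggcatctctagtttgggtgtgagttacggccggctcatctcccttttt
Gm4565: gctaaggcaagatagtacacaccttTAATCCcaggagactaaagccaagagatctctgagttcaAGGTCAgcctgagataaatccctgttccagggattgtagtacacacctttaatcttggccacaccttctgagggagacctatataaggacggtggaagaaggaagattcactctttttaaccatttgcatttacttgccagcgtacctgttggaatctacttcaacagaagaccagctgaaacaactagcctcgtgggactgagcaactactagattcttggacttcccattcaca
Trim43a: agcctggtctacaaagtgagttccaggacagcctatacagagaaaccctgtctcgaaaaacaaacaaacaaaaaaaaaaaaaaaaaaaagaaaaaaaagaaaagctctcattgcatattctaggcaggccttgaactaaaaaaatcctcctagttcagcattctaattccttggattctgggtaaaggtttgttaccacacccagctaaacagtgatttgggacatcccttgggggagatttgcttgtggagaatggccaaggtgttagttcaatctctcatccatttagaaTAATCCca
Zbed3: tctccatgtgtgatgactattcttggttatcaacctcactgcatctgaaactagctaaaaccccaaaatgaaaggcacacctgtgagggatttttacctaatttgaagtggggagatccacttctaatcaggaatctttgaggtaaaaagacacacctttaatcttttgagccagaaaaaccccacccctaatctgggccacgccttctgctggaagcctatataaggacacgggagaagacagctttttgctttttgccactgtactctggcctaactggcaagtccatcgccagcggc
Slc45a3: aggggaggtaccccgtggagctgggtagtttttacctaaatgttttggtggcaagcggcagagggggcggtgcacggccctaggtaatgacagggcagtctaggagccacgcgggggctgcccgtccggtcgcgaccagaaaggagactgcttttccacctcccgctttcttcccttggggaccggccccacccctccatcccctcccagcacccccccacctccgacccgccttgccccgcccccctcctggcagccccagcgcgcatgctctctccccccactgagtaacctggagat

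All 3 newly present genes hold TAATCC, on the minus strand in Guca1a, and Guca1a and Gm4565 also hold AGGTCA. Of the 4 cleared genes whose promoters were searched singly, Zbed3 and Slc45a3 hold none of the 4 motifs, E330021D16Rik holds AGGTCA and D6Ertd527e holds CCAAT on the minus strand at 2 places (promoters not printed). The promoters of Guca1a, Gm4565 and Trim43a have 8, 3 and 1 CG pairs, and those of Zbed3, D6Ertd527e, E330021D16Rik and Slc45a3 have 4, 4, 3 and 17, so the groups overlap. Over all matched promoters, TAATCC was in 8.75% of 606 newly present mRNAs, 5.61% of cleared, 5.82% of retained and 5.90% of all tested mRNAs, and in 7.16% of all 27025 RefSeq promoters. AGGTCA was in 17.2% of newly present, 12.3% of cleared and 16.0% of all RefSeq promoters. TATAAA was in 12.1%, 9.01% and 14.2% in the same order, and CCAAT in 39.8%, 37.6% and 37.9%. Newly present mRNAs were thus above the tested mRNAs in TATAAA (12.1% against 7.90%) and AGGTCA (17.2% against 12.8%) but near the RefSeq average. The median number of CG pairs was 9 in newly present, 17 in cleared, 23 in retained and 19 in all tested mRNAs, and 7 in all RefSeq promoters. These shares are descriptions, and a match is not a binding site.

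Compared with all tested mRNAs, in a description without a test, newly present genes had shorter spans and fewer exons. The median span was 10270 bases, against 28370 in cleared, 33810 in retained and 25130 in all tested mRNAs, and 17.5% had at most 2 exons in every transcript, against 6.13%, 2.80% and 6.50%. A start within 200 kb of the start of another newly present mRNA was found for 47.2% of them, while 30.3% of all tested mRNAs had a newly present mRNA at that distance. The share was 42.8% for mRNAs that fell then rose, 27.5% for retained, 24.7% for those that rose then fell and 19.5% for cleared mRNAs, so this closeness was not particular to newly present genes. The longest run lay on chromosome 12 from 87494721 to 88027438, with 11 genes from Gm5788 to Gm2056. On chromosome 3 a run of 10 genes from 93651542 to 94266784 held Tdpoz2, Tdpoz3, Tdpoz4 and Tdpoz5, which code for TRAF and BTB domain proteins. A run of 8 on chromosome 10 (118238372 to 118445892) went from Gm32717 to Ifng. Related genes of such a run can share reads and are not independent of each other.

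Retained mRNAs include regulators of protein turnover, translation and chromatin. Mdm4 (chromosome 1, 132959484 to 133030561), an inhibitor of p53, was the retained mRNA with the highest level, with 2919.8, 2879 and 2832 CPM at MII and 4395, 3112 and 4439 at L2C. Its log2 change had a 95% interval of 0.12 to 0.82, and 1 of the L2C libraries was much closer to the MII values than the other 2. Ubb, a polyubiquitin gene, had 2776, 3208 and 3457 CPM at MII and 3499, 4327 and 2926 at L2C, with an interval of -0.16 to 0.53. Oog3, an oogenesin of the PRAME-like family, had 3274, 3270.1 and 2912 CPM at MII and 3432, 2207 and 3385 at L2C (interval -0.47 to 0.33). In both genes the stages overlapped.

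Rnf4 (chromosome 5, 34336289 to 34355629), a ubiquitin ligase for SUMO-modified proteins, differed little between the stages, with 1298, 1125 and 1096 CPM at MII, 1222, 1079.7 and 1211 at L1C, 1113, 1120.0 and 1188 at L2C and an interval of -0.28 to 0.20. Dppa3 (Stella), which protects the maternal genome from demethylation, had 988, 1033 and 1243 CPM at MII and 1227, 1171 and 1332 at L2C (interval -0.07 to 0.45). H3f3b, a gene for histone H3.3, had an interval of -0.82 to -0.05, and Cnbp, a nucleic acid-binding zinc finger protein, -0.64 to -0.19. Eif5a, a translation factor, dipped in between: 957, 998 and 1067 CPM at MII, 454, 559 and 596 in L1C and 1320.0, 1497 and 1429.9 in L2C embryos, with a net interval of 0.23 to 0.76. Its L2C libraries ended above its MII libraries. The level in an input does not separate an mRNA that was kept from one that was lost and made again.

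Genes with cancelling steps were those with a step of more than 2-fold up and a step of more than 2-fold down, both called at an adjusted p under 0.05 by edgeR, and a net 95% interval within -1 to 1. In the first step 31.5% of mRNAs were called higher and 27.6% lower, and in the second 44.2% and 39.3%. Of 15279 mRNAs 239 (1.56%) rose and then fell, and 229 (1.5%) fell and then rose. Both steps use the same L1C libraries, so an error in those libraries moves the steps in opposite directions and by itself favours this pattern. mRNAs that rose then fell held 0.694% of the MII, 2.05% of the L1C and 0.701% of the L2C libraries, and those that fell then rose 1.75%, 0.649% and 2.00%. The course of these shares follows from the rule.

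Among mRNAs that rose then fell, 0610009B22Rik (chromosome 11, 51685386 to 51688874) had the largest smaller step. It had 2.41, 2.65 and 3.44 CPM at MII, 41.4, 31.3 and 40.8 in L1C and 2.97, 3.28 and 3.59 in L2C embryos, log2 steps of 3.75 and -3.52 (edgeR adjusted p = 3.27e-09 and 4.67e-10). All 3 L1C libraries stood far above the 6 others, and MII and L2C overlapped. The other 5 named by the rule had these steps: Adam7, a disintegrin and metalloprotease family member (3.01 and -3.19), Rhoh, a small GTPase of blood cells (2.74 and -3.13), Ston1, an endocytic adaptor (2.65 and -2.85), Cyp2b23, a cytochrome P450 (2.62 and -2.89), and Cyb5a, cytochrome b5 (2.92 and -2.61).

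The opposite course was led by Taldo1 (chromosome 7, 141392199 to 141402968), the transaldolase of the pentose phosphate pathway. It had 43.1, 61.7 and 71.6 CPM at MII, 2.20, 4.50 and 5.50 in L1C and 54.9, 58.2 and 56.1 in L2C embryos, with log2 steps of -3.87 and 3.81 (edgeR adjusted p = 5.23e-08 and 7.48e-09) and a net interval of -0.55 to 0.43. The L2C libraries lay within the range of the MII libraries, and every L1C library was far below both. Mfsd10, a membrane transporter of the major facilitator family (-3.52 and 3.67), Il17ra, the receptor of interleukin 17 (-2.90 and 3.56), Tmem39b (-2.77 and 3.43), Sbk1, a protein kinase (-2.50 and 2.85), and Gucy2e, a retinal guanylate cyclase (-2.46 and 2.98), followed the same course. On exons of the control L2C libraries, 90.8% of the mRNAs that fell then rose and 76.6% of those that rose then fell had at least 1 CPM in each. The share was 72.6% for all tested mRNAs. Mean exon CPM of Mfsd10 (3.49), Tmem39b (2.32), Gucy2e (4.58) and Rhoh (0.0613) lay far below their L2C span means (56.5, 81.2, 55.2 and 5.89). Of the named mRNAs of both courses, only Cyb5a (80.1 against 6.60) and 0610009B22Rik (13.6 against 3.28) were higher on exons. The cause was not tested.

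**Figure D3:**
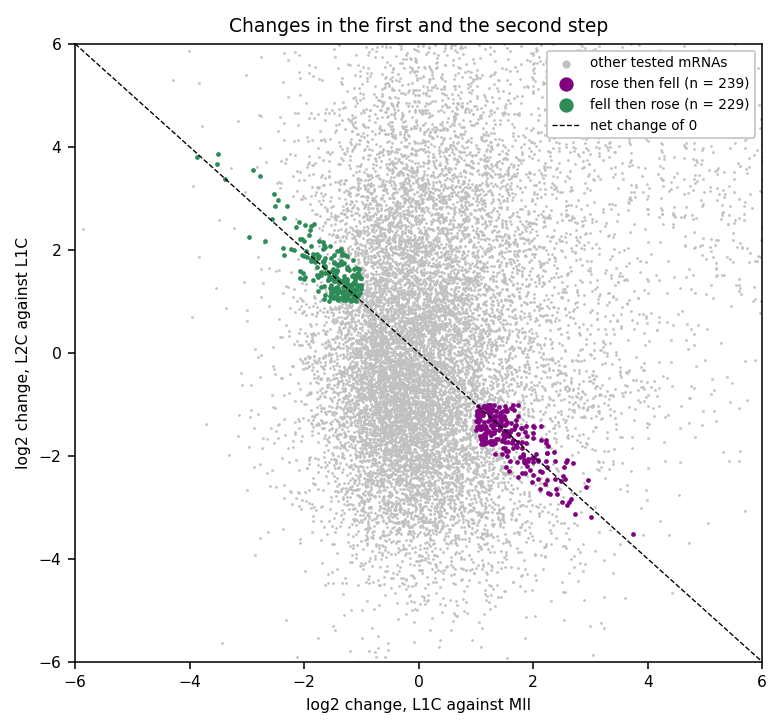
Log2 change of each tested mRNA in the first step (MII to L1C, horizontal) against the second step (L1C to L2C, vertical), 1 point per mRNA, with cancelling mRNAs coloured, a dashed line where the net change is 0 and 826 mRNAs outside the axes, which end at 6 in either direction. The 239 mRNAs that rose then fell lie at the lower right and the 229 that fell then rose at the upper left, along the diagonal of no net change.

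**Figure D4:**
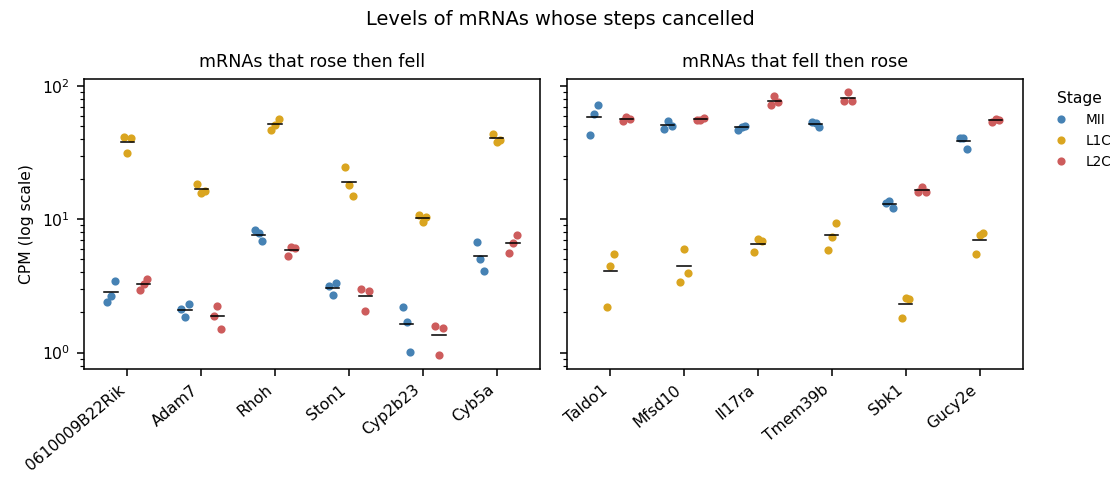
CPM (vertical, log axis) of the 12 named mRNAs with cancelling steps, with 1 point per input library coloured by stage and a line at the mean of 3. For 0610009B22Rik the L1C libraries reach 31.3 to 41.4 CPM between ends at 2.41 to 3.59 CPM, and for Taldo1 they sink to 2.20 to 5.50 CPM between ends at 43.1 to 71.6 CPM.

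Gene lists were then read by function, each count beside the 46.8% higher and 38.3% lower among all mRNAs and each median beside 0.29. Values in parentheses after a gene are its net log2 change. Among the genes named from here on, the spans of B2m, Btg4, Cdc20, Dcp1a, Eif2ak1, Eif4enif1, Gapdh, Khdc3, Mettl3, Nhp2, Nlrp2, Pabpn1l, Polr2b, Psmb7, Psmd1, Ptx3, Rpl15, Sp110, Sqstm1, Trim28, Tssk6, Uqcrc2, Xist and mt-Co3 overlap that of another protein-coding gene, so their values are uncertain. Most mRNAs of egg proteins were lower. Of 13 genes for secreted and zona proteins of the oocyte 12 were lower and 9 cleared (median log2 change -2.70). Bmp15, the partner growth factor of Gdf9, changed by -3.16. Cd9, the membrane protein needed for gamete fusion, was the 1 that was higher, at 19.3, 22.3 and 19.6 CPM at MII and 79.6, 101 and 75.2 at L2C (2.07). Zp3, the zona protein that sperm bind, fell and then rose to end near its MII level (-0.36). All 8 genes of the subcortical maternal complex were lower and 7 cleared (median -3.09). Beside Zbed3 these were Nlrp4f (-5.36), Ooep (-4.66), Padi6 (-3.89), Nlrp2 (-2.54), Nlrp5 (-2.40), Tle6 (-2.28) and Khdc3 (-1.47), the last of which was lower but not cleared.

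Of 20 genes of meiotic arrest and exit 13 were lower, 9 of them cleared, and 5 were higher (median -1.34). Mos, the kinase that holds the egg in metaphase, changed by -5.10, Fbxo43, the inhibitor of the anaphase-promoting complex, by -3.49, and the checkpoint kinase Bub1b by -5.29. Cdk1, the catalytic subunit of the M-phase kinase, went the other way, from 2.28, 2.15 and 2.54 CPM at MII to 408, 428 and 436 at L2C (7.51, edgeR adjusted p = 3.14e-13). The groups were far apart, a 183-fold difference in the fit, with little spread in either. Cdc20, an activator of the anaphase-promoting complex, was higher too (1.47). The 20 genes summed to 10740 to 11360 CPM at MII and 4450 to 4902 at L2C.

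Of 26 genes of deadenylation and decay 13 were lower, 11 of them cleared, and 8 were higher (median -0.56). Btg4, the adaptor that brings the CCR4-NOT deadenylase to maternal mRNA, changed by -2.68, the poly(A)-binding protein gene Pabpn1l by -7.08 and the decapping factor Dcp1a by -4.98, while the CCR4-NOT subunits Cnot10 and Cnot1 were higher by 5.28 and 2.45. The 26 summed to 8265 to 8426 CPM at MII and 2280 to 2446 at L2C. Of 18 genes of mRNA storage and polyadenylation control 9 were lower and 6 higher (median -0.37), with a sum of 4649 to 5060 CPM at MII and 733.4 to 745.1 at L2C.

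Zar1, which binds stored maternal mRNA, went from 2014, 2286 and 2291 CPM at MII to 13.3, 13.3 and 15.4 at L2C (-7.29). Igf2bp1, an mRNA-binding protein of the embryo, and Cpeb2, a cytoplasmic polyadenylation element-binding protein, were higher (4.19 and 4.93). Eif4enif1, the transporter of the cap-binding protein eIF4E, had 768, 696 and 676 CPM at MII and was listed at 0 in every L2C input, yet its exons held 144, 152 and 147 CPM in the control L2C libraries. Whether the mRNA was gone at L2C cannot be told from the 0 of the whole-span count.

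Most genes of the 2-cell stage were higher. Of 26 genes of the 2-cell stage, 24 were higher and 12 newly present (median 8.47, or 8.23 with genes at 0 in MII set to their lower bound). Their sum was 232.6 to 239.9 CPM at MII, 487.0 to 584.7 in L1C and 2208 to 2678 in L2C embryos. Usp17lb, a deubiquitinase of this stage, rose by 10.97. Tcstv1 was lower (-0.47), but not under scaling to library size, where 0 of the 26 were lower, and Sp110, an immune nuclear body gene, was not called. Of 14 tested early embryonic transcription factors 9 were higher and 5 lower (median 2.50). The summed level of the list went the other way from the count, from 2266 to 2524 CPM at MII to 1540 to 1746 at L2C. Dppa4 rose by 8.87. Tead4, which specifies trophectoderm later on, went from 0.172, 0.0499 and 0.225 CPM to 71.2, 83.0 and 76.1, whereas the pluripotency factors Pou5f1 (-1.71) and Esrrb (-1.44) were lower, and Sox2 and Cdx2 were too low to be tested.

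Y-linked genes and Xist were at or near 0 at MII and higher at L2C. As background, the Y chromosome reaches the embryo with the sperm, and Xist is transcribed from the paternal X chromosome in early embryos. All 8 tested of 9 were higher, 6 of them newly present (Ddx3y, Uty, Eif2s3y, Zfy1, Usp9y and Xist), and their sum was 0.250 to 0.789 CPM at MII, 3.62 to 4.36 in L1C and 36.6 to 54.1 in L2C embryos. Uty, a histone demethylase family gene, had 0, 0 and 0.169 CPM at MII and 23.1, 13.6 and 18.0 at L2C, and Xist, which coats the inactive X chromosome, had 0, 0.0499 and 0 CPM at MII and 4.83, 4.62 and 3.57 at L2C. Uba1y was too low to be tested. Kdm5d had 9, 3 and 5 counts and Zfy2 6, 1 and 3 counts in the MII libraries. The source of these counts in eggs was not tested.

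Nearly all ribosomal protein genes were higher. Of 77 ribosomal protein genes 74 were higher and 10 newly present (median 4.76), with a sum of 152.4 to 207.4 CPM at MII, 133.3 to 150.6 in L1C and 2494 to 2981 in L2C embryos. The gain of the sum thus fell in the second step. Rpl41 (7.89) and Rps3 (6.03) had the smallest p among the higher genes. Rpl41 alone held 999.9, 1412 and 971.6 CPM of the sum at L2C. Rpl17 (-1.53) and Rpl15 (-0.57) were lower. These genes have many processed copies, and 300 pseudogenes named after them summed to 129.0 to 136.9 CPM at MII and 868.4 to 1031 CPM at L2C, so the level of a single gene is uncertain.

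Of 38 genes of ribosome biogenesis 31 were higher and 2 lower (median 2.02). Nop2, an rRNA methyltransferase, went from 1.90, 2.60 and 2.03 CPM at MII to 733, 837 and 751 at L2C (8.47), and Nhp2, of the pseudouridylation snoRNPs, rose by 6.99. The lower genes were Bms1 (-2.75) and Wdr36 (-0.54), both of small subunit assembly, and 4 of the 38 fell and then rose to end near their start. The sum over the 38 was 2716 to 3048 CPM at MII and 8944 to 9514 at L2C. Of 55 translation initiation factor genes 35 were higher and 14 lower (median 1.36), with Eif4h (4.75) and Eif3g (4.23) up and the kinase gene Eif2ak1 (-2.35) down. Their summed level changed far less than the median, from 7942 to 8368 CPM at MII to 8683 to 9305 at L2C. Of 33 proteasome subunits 20 were higher and 12 lower (median 0.77), from Psmb7 (4.75) and Psmb1 (3.01) to Psmd1 (-2.98) and Psma7 (-5.13). Their summed level was lower at L2C, at 2812 to 3062 CPM against 4485 to 4653 at MII.

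Of 84 tested nuclear genes of oxidative phosphorylation 53 were higher and 22 lower (median 1.31), among them Uqcc3, an assembly factor of complex III (7.41), and Ndufs8 of complex I (5.27), against Ndufa10 (-4.48) and Uqcrc2 (-4.12). Their summed level differed little, at 2818 to 3025 CPM in MII and 2973 to 3231 in L2C libraries. All 13 mRNAs of the mitochondrial genome were higher (median 2.34). mt-Cytb, cytochrome b, had 239, 282 and 238 CPM at MII and 2071, 1225 and 1681 at L2C. mt-Co3 rose by 2.54. The summed level of the 13 was 695.2 to 945.4 CPM among the MII libraries and 3175 to 5669 CPM among the L2C libraries. Of 24 genes of pyruvate, lactate and glucose use 13 were higher and 8 lower (median 0.59), shares near those of all mRNAs, while their summed level was 1921 to 2189 CPM at MII and 1083 to 1187 at L2C. The glucose transporter Slc2a3 (6.82) and the glycolytic enzyme Pgam1 (3.08) rose, and lactate dehydrogenase B, Ldhb (-4.19), and Dlat of the pyruvate dehydrogenase complex (-2.68) fell.

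Of 22 genes of RNA polymerase II and initiation 16 were higher and 5 lower (median 1.49), with the subunits Polr2b (3.64) and Polr2l (3.97) up and Gtf2b (-2.80) and Tbpl2, the TATA-binding protein paralog of the oocyte (-3.40), down. These 22 summed to 1880 to 2039 CPM at MII and 3597 to 3877 at L2C. Of 24 genes of the U snRNPs and SF3 complexes 10 were higher and 10 lower (median -0.07), with the core proteins Snrpd2 (5.62) and Snrpc (5.59) up and Snrpb2 (-2.67) and Sf3b1 (-1.50) down. Their summed level was 2187 to 2444 CPM at MII and 1823 to 1961 at L2C. Of 22 replication licensing genes 8 were higher and 9 lower (median -0.05), with Gins4 (3.08) and Gins3 (2.46) of the GINS complex against Orc5 (-4.03) of the origin recognition complex and Mcm4 (-1.50) of the helicase. Their summed level was 3721 to 3759 CPM at MII and 2763 to 2959 at L2C. In the last 2 lists the shares in both directions lay near those of all mRNAs.

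Of 11 tested genes of DNA methylation and demethylation 7 were lower and 2 higher (median -1.28). Uhrf1, the cofactor of maintenance methylation (-4.42), and Tet3, the dioxygenase that oxidizes 5-methylcytosine in the zygote (-3.14), were cleared, while its paralog Tet1 (3.71) and the corepressor Trim28 (1.69) rose. The list summed to 3673 to 4039 CPM at MII and 1865 to 1983 at L2C. Of 14 genes for the oocyte linker histone, histone variants and chaperones 7 were lower and 6 higher (median 0.02), with Chaf1b of chromatin assembly factor 1 (3.33) and H2afz, the variant H2A.Z (4.33), rising beside the loss of H1foo, and the H3.3 chaperone Daxx falling (-2.79). The summed level of these 14 was 12450 to 14830 CPM in MII and 2090 to 2617 CPM in L2C libraries, with H1foo among them.

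**Figure D5:**
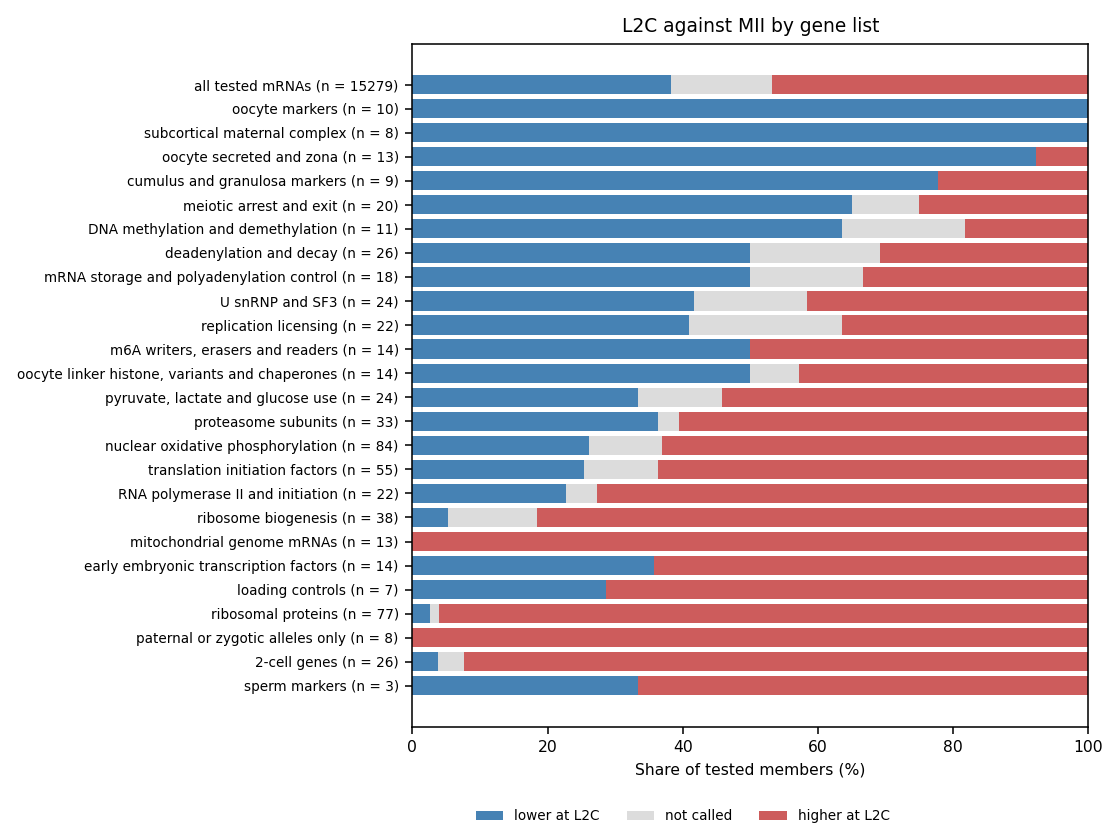
Share of the tested members of each gene list (horizontal axis, percent) that were lower, not called or higher at L2C against MII, with all tested mRNAs at the top (38.3% lower, 46.8% higher) and the lists in order of their median log2 change. The order runs from oocyte markers (-3.91) to sperm markers (8.91), whose 3 tested members make it the shortest list.

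Of 14 m6A writers, erasers and readers 7 were higher and 7 lower (median 0.01), shares not far from those of all mRNAs, and their summed level was 1827 to 2037 CPM at MII and 1998 to 2343 at L2C. The methyltransferase subunits Mettl3 (132, 107 and 109.8 CPM at MII, 16.9, 20.1 and 16.5 at L2C, -2.71), Mettl14 (-2.55) and Virma (-2.65) were cleared, and so was the demethylase Fto (-2.43). Alkbh5, the other demethylase, was lower by less (-1.75), as was the reader Ythdf3 (-1.95). The U6 methyltransferase Mettl16 was higher by 0.59.

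The readers Ythdf2, Ythdc2, Ythdf1 and Ythdc1 were higher. Ythdf2 had 97.4, 90.8 and 89.1 CPM at MII, 51.6, 55.1 and 52.5 in L1C and 344, 295 and 378 in L2C embryos, a net log2 change of 1.87 (SE 0.12, edgeR adjusted p = 2.26e-09) after a dip at L1C. Ythdc2 rose in the first step, from 83.4, 87.3 and 90.7 to 719, 762 and 686 CPM, and ended at 535, 511 and 557 (2.62). Ythdf1 was low on the span throughout, with 1.68, 2.00 and 1.75 CPM at MII and 8.78, 8.42 and 7.82 at L2C (2.20). Ythdc1, the nuclear reader, had 10.4, 12.3 and 12.6 CPM at MII and 21.01, 15.6 and 19.6 at L2C (0.67, edgeR adjusted p = 0.00235). In all 4 the L2C libraries were above the MII libraries, while the stages did not overlap for 87.3% of all tested mRNAs. On exons of the control L2C libraries Ythdc2 had 10.3, 11.9 and 9.31 CPM and Ythdf2 1104, 1055 and 1058. Ythdf1 had 39.5, 44.6 and 45.7 and Ythdc1 420, 427 and 395 exon CPM. The order of the 4 on exons thus differed from that on spans, and the cause was not tested.

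Of 6 further genes set by the naming rule, 5 were lower. Tceal8, a transcription elongation factor A-like gene, had 70.9, 65.3 and 64.7 CPM at MII and 2.47, 3.62 and 2.23 at L2C (-4.62), and Commd3 changed by -2.65. The study prints the symbol Tcea18, which was read here as Tceal8. Rab3b, a GTPase of secretory vesicles, rose from 26.3, 29.1 and 27.2 CPM at MII to 65.8, 79.5 and 84.1 at L1C and then dropped below its start, to 8.48, 8.19 and 8.12 at L2C (-1.73). Sqstm1, the autophagy receptor p62, which the study names only from other work, changed by -1.44 and Ybx3, a Y-box protein, by -0.96, while Camk1d, a calmodulin-dependent kinase, ended above its start (0.57) after a higher level at L1C.

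Genes used as loading controls were not level. All 7 were called, 5 higher and 2 lower, where 85.1% of all tested mRNAs were called in either direction. Actb had 98.7, 94.7 and 86.4 CPM at MII and 50.0, 79.4 and 50.3 at L2C (-0.64), with 1 L2C library close to the MII range, and Gapdh was lower too (-1.09). Hprt (1.45), Ppia (3.26) and H2afz (4.33) rose. B2m was listed at 0 in every MII library and had 22.6, 16.5 and 20.1 CPM at L2C, where the exons of the control libraries held 129, 128 and 115 CPM.

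Markers of cells that could cling to eggs or embryos were checked. Of 14 cumulus and granulosa markers 9 were tested, 7 of them lower and 2 higher (median -1.94). Their sum was 61.4 to 68.9 CPM at MII and 249.6 to 271.0 at L2C, nearly all of the latter from Amhr2 (242, 263 and 263 CPM). The exons of Amhr2 held only 19.9, 18.1 and 23.5 CPM in the control L2C libraries. Of 3 genes of steroid synthesis in the list, 2 were cleared and 1 was higher. Cyp19a1, aromatase, had 39.0, 36.1 and 31.8 CPM at MII and 1.82, 0.761 and 1.87 at L2C (-4.53), and Cyp11a1, the side-chain cleavage enzyme, 14.5, 13.6 and 13.7 CPM at MII and 0.473, 0.619 and 0.456 at L2C (-4.77). Star, which brings cholesterol to the same side-chain cleavage step, went the other way, from 1.98, 1.65 and 1.52 CPM to 2.74, 4.00 and 3.06 (0.91). Of the 9 markers tested, 4 were cleared. The part of such cells in the results was not tested. Ptx3 was at 0 in all 9 inputs, and Has2, Amh, Foxl2 and Lum were under 0.3 CPM in every MII and L2C library. Of 8 sperm markers 3 were tested: Prm2 was lower (-1.58), Tssk6 higher, and Prm1 had 0 counts at MII and L1C and 58.5, 72.4 and 54.9 CPM at L2C. The exons of Prm1 held 0 counts in the control L2C libraries, and Tnp1 and Smcp were at 0 in every L2C library. Tnp2, Odf1 and Akap4 were too low to be tested. The number of sperm markers called lower was 2 in place of 1 under several alternatives.

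Genes other than mRNAs followed a different balance. Of 4624 tested, 2303 were higher (49.8%) and 1529 lower (33.1%). Newly present genes made up 680 of these (14.7%, against 5.73% of mRNAs), cleared genes 912 (19.7%) and retained genes 225 (4.87%, against 14.3%). In either direction 82.9% were called, and 41 (0.887%) rose then fell while 30 (0.649%) fell then rose. Long intergenic RNAs went from 2.22% to 2.57% of MII libraries to 3.99% to 4.21% of L2C libraries, and antisense genes from 0.860% to 0.906% to 3.57% to 3.82%. Genes of the annotation type TEC went further, from 0.836% to 0.856% to 5.36% to 5.54%. Processed pseudogenes went from 0.939% to 1.01% to 1.90% to 2.02%. Whether counting used the strand of the reads is not given in the sources used here, so antisense genes and their partners cannot be told apart.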

How the data were processed

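The 9 inputs (3 each of MII, L1C and L2C) were analysed. The authors quantified reads with kallisto and deposited estimated counts per gene, not scaled to library size, for 55471 genes whose targets are whole gene spans, introns included (54937 equal the span in GENCODE M21, on GRCm38). The labels name a stranded total RNA kit and the methods a Smart-seq2 protocol with oligo-dT, so the priming is uncertain. An effect of poly(A) tail length on the levels was not tested. The control L2C libraries were deposited as raw read counts on exons, made by the authors with featureCounts after trimming (Trimmomatic) and alignment (HISAT2), and were scaled here to the library total. Deposited TPM values, the IP libraries and the knockdown libraries were not used.

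Estimated counts were rounded, filtered with filterByExpr of edgeR 4.0.16 (R 4.3.3), scaled by TMM and fitted with the quasi-likelihood test, all 9 inputs together with 1 coefficient per stage. P values were adjusted by Benjamini-Hochberg over 19903 genes, 15279 of them mRNAs, and called under 0.05. Of 6695 protein-coding genes not tested, 2181 had 0 counts in all 9 inputs and the highest mean level was 1.17 CPM. A group at 3 counts or fewer per library was taken as the floor, and lower bounds and exact 95% Poisson intervals cover counting error only. Total counts were 18557483 to 38195381 per library, and the spread between replicates exceeded counting error in every pair (chi-square per degree of freedom 5.57 to 30.0). DESeq2 1.42.0 was an alternative, beside library size scaling, no filter, a replicate block, the 6 end libraries alone, other class thresholds and each library left out in turn. The fits were also run on simulated data, whose outcome is not given and not used here. Figures were drawn with matplotlib 3.10.9 and tables made with pandas 2.3.3, scipy 1.17.1 and numpy 2.4.6 in Python 3.11.15.

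Named genes follow a rule: among mRNAs whose span overlaps no other protein-coding gene, the 8 cleared with the highest MII level and a log2 change below -3, the 8 newly present with the highest L2C level, the 8 retained with the highest mean level and the 6 of each cancelling direction with the largest smaller step; and, whether spans overlap or not, in each list the 2 members with the smallest p in each direction (all members of lists of at most 9) and genes the study names by symbol. The condition on overlap was meant for all of these but was applied to the classes only. Further list members were named after their values were seen. The members, classes and 25 gene lists were chosen with earlier results of these data known. Of the loading controls, 1 gene is not reported here.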

Additional observations from a re-analysis of the deposited data

How the results depend on the processing

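No result reversed under any alternative. The class sizes depend on their thresholds: cleared mRNAs numbered 4679 with a log2 change below -1 and 1150 below -3, and newly present mRNAs 1518 with at most 10 counts in each MII input, 400 with 0 counts there and 381 with at least 5 CPM in each L2C input. Retained mRNAs numbered 710 with the interval held within 1.5 times, and 873 mRNAs had cancelling steps when each step needed only 1.5 times (397 rose then fell, 476 fell then rose). Scaling to library size moved the median log2 change of mRNAs from 0.29 to 0.44 and gave 7420 higher and 5546 lower. Without a filter on low counts 7875 were higher and 6168 lower, and DESeq2 gave 7825 and 5706, with 2575 cleared, 876 newly present, 2166 retained and 194 and 263 cancelling.

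Replicate numbers did not pair the libraries: deviations of MII and L2C inputs with the same number correlated at -0.057, -0.039 and 0.034. With the replicate block 7093 mRNAs were higher, 5809 lower, 2615 cleared, 2128 retained, and 228 and 230 had cancelling steps. With libraries left out in turn, retained mRNAs ranged from 1855 to 2263 and newly present mRNAs from 876 to 1024. Of 146 named genes 7 lost or gained a call under some alternative (Mdm4, Dppa3, H3f3b, Rhoh, Cyb5a, Sbk1 and Tcstv1). Of 750 list counts under the alternatives, 10 moved by over 1.5 times: the lower sperm markers went from 1 to 2 in 9 (DESeq2, no filter, and without MII replicate 2 or any 1 of the L1C or L2C libraries), and the lower genes of the 2-cell stage from 1 to 0 under library size scaling. Levels on whole spans do not separate introns from exons, and a net change does not separate stored from newly made RNA.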
